A study of Mus musculus with 4 samples.

Results

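The voltage-gated sodium channel subunits covered here were 8 genes, the alpha subunit genes *Scn1a*, *Scn2a*, *Scn3a*, *Scn8a* and *Scn9a* and the beta subunit genes *Scn2b*, *Scn3b* and *Scn4b*. They were found by their Ensembl identifiers, matched to GENCODE M21, among the 55573 genes counted per library, and all 8 were present. RNA was sequenced from cells with the tdTomato reporter, enriched by fluorescence-activated cell sorting from the E16 (embryonic day 16) basal telencephalon of mice, counting the day of insemination as the first. Wild-type (WT) and knockout (KO) embryos both carried *Hmx3-Cre* and the reporter, and in KO embryos 2 exons of *Dnmt1*, which encodes DNA methyltransferase 1, were flanked by loxP sites and removed in cells with Cre. *Hmx3-Cre* is active in post-mitotic interneurons born in the preoptic area (POA), and the sorted cells hold whatever descends from cells that used it. Each genotype had 2 libraries, from cells pooled over 12 WT and 6 KO embryos.

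Voltage-gated sodium channels carry the inward current that starts and propagates the action potential. Each channel has 1 large pore-forming alpha subunit, and smaller beta subunits with an immunoglobulin-like extracellular domain modify its gating and tether it to neighbouring proteins. In the rodent forebrain *Scn3a* is the embryonic alpha subunit, whereas *Scn1a* gains weight after birth and is the main alpha subunit of fast-spiking interneurons. *Scn2a* and *Scn8a* encode the channels of the axon initial segment, early and mature, and *Scn9a* is best known from sensory neurons but is also used in the hypothalamus.

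The libraries held 8075102 to 9995968 counts, at which 3 counts correspond to 0.294 to 0.372 CPM (the usual library-size-normalised read count, scaled by TMM). The series' design text calls the libraries biological replicates and the study's methods technical duplicates of pools. As a result, SDs and p-values describe the spread between libraries, which may be technical. WT replicate 1 stood apart by its mitochondrial rRNA, which made up 8.66% of its counts against 1.51% to 2.32% elsewhere. Of 16832 genes that passed the expression filter, 7.9% differed between genotypes at an edgeR adjusted p under 0.05, 7.33% higher and 0.57% lower in KO. Of these calls 92.8% were higher in KO, and 72.4% after a correction for transcript length and GC content. The share higher was 66.5% without WT replicate 1 and 48.2% without WT replicate 2 (2029 higher and 2180 lower). *Dnmt1* itself had 385 and 447 CPM in WT and 283 and 281 CPM in KO, with no overlap (log2 fold change -0.56, edgeR adjusted p = 0.0511). A count over the whole gene sees the removal of 2 exons only in part.

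The levels of *Scn1a*, *Scn3a*, *Scn9a* and *Scn3b* were lower and that of *Scn8a* higher in both KO libraries than in both WT libraries. No difference among the tested subunit genes passed the edgeR threshold. Of the 7 genes that passed the expression filter, 6 had a negative and 1, *Scn8a*, a positive log2 fold change, although *Scn2a* turned positive with the length and GC correction and *Scn2b* with library size as the only scaling. The 7 had a median log2 fold change of -0.14 against -0.0262 over all tested genes. By edgeR 0 of the 7 were called and 2, *Scn3a* and *Scn9a*, had an unadjusted p under 0.05, as did 22.7% of all tested genes, while DESeq2 and limma-voom each called 1, *Scn3a*. *Scn4b* did not pass the filter. In 4 of the 7 genes both KO values were under both WT values, as in 25.2% of all tested genes, and in 1 they were above, as in 28.3%, so that 5 of 7 had no overlap against 53.5% of all tested genes.

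**Figure D1:**
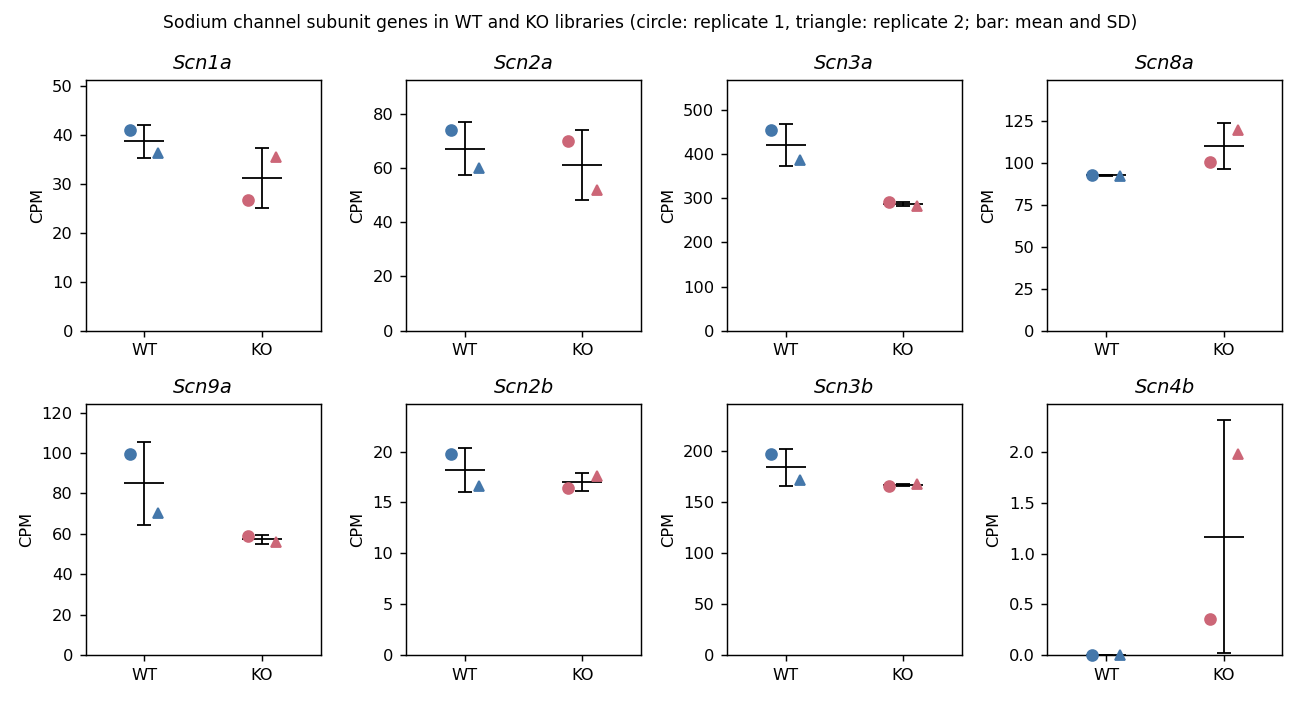
Level of each sodium channel subunit gene in CPM (linear axis from 0, scaled per gene), with circles for replicate 1, triangles for replicate 2, and the mean and SD of the 2 libraries per genotype as lines. *Scn1a*, *Scn3a*, *Scn9a* and *Scn3b* lay lower in both KO libraries, *Scn8a* higher, and *Scn4b* had no counts in WT.

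Of the 5 alpha subunit genes, 4 lie within about a megabase on chromosome 2 of GRCm38, in the order *Scn3a* (65457118 to 65567627, minus strand), *Scn2a* (65620771 to 65767447, plus strand), *Scn1a* (66270778 to 66440840, minus strand) and *Scn9a* (66480080 to 66634962, minus strand). *Scn8a* stands alone on chromosome 15 (100869858 to 101045938, plus strand). The beta subunit genes lie on the plus strand of chromosome 9, *Scn3b* from 40269217 to 40291618, *Scn2b* from 45117782 to 45130070 and *Scn4b* next to it from 45138395 to 45154152. The genes of the chromosome 2 group are long and poor in GC. The longest *Scn3a* transcript had 42.1% GC against a median of 49% over all tested genes, and only 4.55% of these had more exonic bases than the 12459 of *Scn3a*. *Scn8a* differed with 50.8% GC. Between 4.03% and 6.49% of the 50-base stretches in transcripts of the 4 chromosome 2 genes also occur in another sodium channel gene, against 0.0374% for *Scn8a* and 0 for the 3 beta subunit genes, so that a small part of the reads between the former is uncertain. Annotated exons of other genes overlapped those of *Scn9a* alone among the 8, over 1.41% of its exonic bases (*Gm13629*, antisense, 0 to 7 counts per library).

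DNMT1 copies methylation at CG dinucleotides to the new DNA strand, and the start regions of these genes differ widely in that dinucleotide. RefSeq promoter windows (GRCm38.p6) were at hand for 6 of the 8 genes, but not for *Scn3a* and *Scn3b*. The 250 bases before each start were searched for CG, which reads the same on both strands. *Scn8a* held the most with 30, at or above which lie 5.94% of 32851 promoters, followed by *Scn4b* with 23 (13.3%). The second start of *Scn8a* and that of *Scn2a* held 9 each (40.3%), *Scn9a* held 5 (55.6%), *Scn1a* 4 (62.2%), the first start of *Scn2a* 2 (81.2%) and *Scn2b* 1 (92.1%). The median over all promoters was 6. RefSeq starts can differ from the GENCODE gene ends given above, and the first window of *Scn8a* and most of that of *Scn4b* lie inside the GENCODE gene. The windows of the alpha gene with the positive difference, of an alpha gene with a negative one and of the beta gene without counts in WT are printed 5′ to 3′ with each CG in capitals, *Scn8a* from chr15:100870395-100870644 (plus strand), *Scn9a* from chr2:66634963-66635212 (minus strand) and *Scn4b* from chr9:45138374-45138623 (plus strand). Methylation was not analysed here, and a link between the number of CG and the difference between genotypes was not tested.
Scn8a: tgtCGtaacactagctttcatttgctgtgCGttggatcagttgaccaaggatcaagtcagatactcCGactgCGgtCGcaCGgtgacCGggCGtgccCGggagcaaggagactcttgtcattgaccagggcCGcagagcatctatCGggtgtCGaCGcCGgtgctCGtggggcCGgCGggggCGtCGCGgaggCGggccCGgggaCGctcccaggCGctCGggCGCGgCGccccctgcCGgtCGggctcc
Scn9a: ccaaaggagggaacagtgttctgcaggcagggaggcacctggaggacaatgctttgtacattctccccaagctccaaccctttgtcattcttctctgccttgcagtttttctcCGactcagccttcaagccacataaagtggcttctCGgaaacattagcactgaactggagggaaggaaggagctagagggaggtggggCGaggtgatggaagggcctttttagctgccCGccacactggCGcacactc
Scn4b: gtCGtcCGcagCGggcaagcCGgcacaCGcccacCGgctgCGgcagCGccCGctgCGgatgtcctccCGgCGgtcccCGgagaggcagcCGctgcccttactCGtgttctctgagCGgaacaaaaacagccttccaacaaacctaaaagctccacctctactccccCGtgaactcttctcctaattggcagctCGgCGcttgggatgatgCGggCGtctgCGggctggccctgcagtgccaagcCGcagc

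*Scn3a*, the embryonic alpha subunit gene, was the most abundant sodium channel gene in counts, with 3670 and 3957 counts in the WT libraries against 2448 and 2574 in the KO libraries. Scaled, these were 456 and 388 CPM in WT and 291 and 284 CPM in KO. Expression was lower in each KO library than in each WT library, and the KO libraries differed from each other by far less than the WT libraries did. The WT mean was 422 ± 48 CPM and the KO mean 287 ± 5.34 CPM (SD, n = 2 each). Its log2 fold change was -0.55 (standard error 0.14, 95% confidence interval -0.88 to -0.22), a KO level 0.681 times that of WT. *Scn3a* thereby missed the threshold, with an edgeR adjusted p of 0.0561. Of all tested genes, 8.23% had a log2 fold change as low as or lower than that of *Scn3a*. This is the channel gene whose call depended most on the test. DESeq2 gave -0.56 with an adjusted p of 0.00824. After the correction for transcript length and GC content the log2 fold change was -0.27 (edgeR adjusted p = 0.0842). Without WT replicate 1 it was -0.44 and without WT replicate 2 it was -0.68, while without KO replicate 1 or 2 it was -0.56 and -0.53. With 1 library left out, the spread comes only from the pair of the other genotype, so that p-values of such fits are not given. By the smallest distance of centred log2 CPM over the 4 libraries, the genes most like *Scn3a* among 14293 were *Msantd4*, *Zfp551* and *Elmod1*, at root mean square distances of 0.0109, 0.0118 and 0.0127.

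*Scn9a* had 99.4 and 70.5 CPM in WT and 59 and 55.7 CPM in KO. The KO libraries lay below both WT libraries, but the WT libraries lay further apart than WT replicate 2 and the KO libraries. The log2 fold change was -0.56 (standard error 0.19, 95% confidence interval -0.999 to -0.13, edgeR adjusted p = 0.122). Without WT replicate 1 it was -0.304 and without WT replicate 2 it was -0.81. After the correction for length and GC content it was -0.27 (edgeR adjusted p = 0.124). *Scn9a* lies next to *Scn1a*, which had 41 and 36.2 CPM in WT and 26.8 and 35.5 CPM in KO. For *Scn1a*, KO replicate 2 came close to WT replicate 2, and the log2 fold change was -0.31 (95% confidence interval -0.76 to 0.14, edgeR adjusted p = 0.383). It was -0.061 after the correction.

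*Scn2a*, the neighbour of *Scn3a* with a start on the opposite strand, had 74.2 and 60.3 CPM in WT and 70.3 and 52.1 CPM in KO. The genotypes overlapped, and the log2 fold change of -0.14 (95% confidence interval -0.58 to 0.31, edgeR adjusted p = 0.72) turned to 0.105 after the correction for length and GC content and to 0.071 without KO replicate 2. *Scn8a*, which encodes the alpha subunit of the mature axon initial segment and nodes of Ranvier, had 93.1 and 92.5 CPM in WT and 101 and 120 CPM in KO. It was the single alpha gene whose level was higher in each KO library than in each WT library. The WT libraries nearly coincided, the KO libraries were further apart than KO replicate 1 was from WT, and the log2 fold change was 0.25 (95% confidence interval -0.10 to 0.60, edgeR adjusted p = 0.372). It stayed at 0.26 after the correction, but was 0.123 without KO replicate 2 and 0.383 without KO replicate 1.

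Among the beta subunit genes, *Scn3b*, whose protein associates with the alpha subunit without a covalent bond, had 197 and 171 CPM in WT and 165 and 167 CPM in KO. Both KO values were under both WT values, but all 4 libraries were close. The log2 fold change was -0.14 (95% confidence interval -0.47 to 0.18, edgeR adjusted p = 0.592). *Scn2b*, whose protein is linked to the alpha subunit by a disulfide bond, had 19.7 and 16.7 CPM in WT and 16.4 and 17.6 CPM in KO. The genotypes overlapped (log2 fold change -0.09, 95% confidence interval -0.59 to 0.40, edgeR adjusted p = 0.838). Changes of up to these limits cannot be told from none for either gene at this number of libraries.

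*Scn4b*, the other disulfide-linked beta subunit gene, was not detected in WT (0 counts per library), whereas KO replicate 1 had 3 and KO replicate 2 had 18 counts. The counts in KO were thus unequal between libraries, and KO replicate 1 stood at the limit of 3 counts that a count of 0 allows. Taking 3 counts per library for WT, or 0.333 CPM on average, the KO mean of 1.17 CPM was 3.51 times this floor. KO replicate 2 alone was 5.95 times the floor, whereas KO replicate 1 alone (0.357 CPM) was close to it. Counting error in KO is not included, so that these are not lower limits. *Scn4b* can pass an expression filter only through its counts in KO, so that calls of it in fits that let it in are not read as support.

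**Figure D2:**
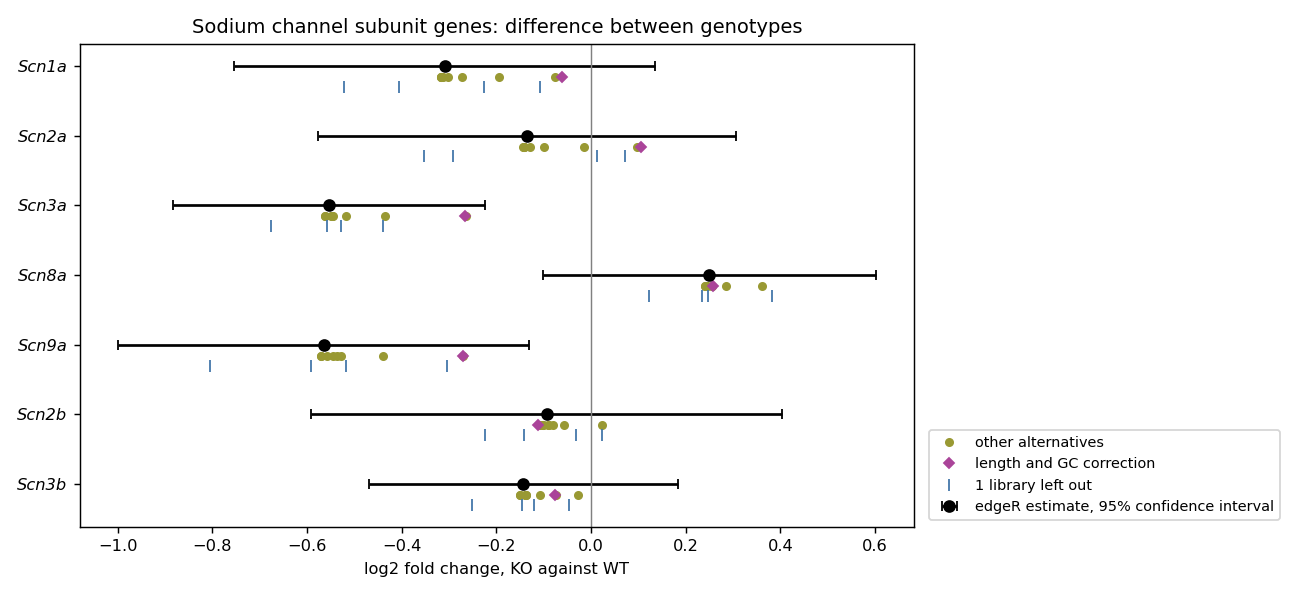
Log2 fold change of KO against WT for the 7 tested sodium channel genes (black, edgeR estimate with its 95% confidence interval), with the estimates after the length and GC correction (diamonds), with 1 library left out (ticks) and under the other alternatives (small circles). *Scn3a* and *Scn9a* were negative in every fit shown and moved towards 0 with the correction (-0.27 in each), and *Scn8a* was positive in every fit shown.

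Levels of different genes were compared per kilobase of exon. In WT, *Scn3a* (33.8 ± 3.85 CPM per kilobase, SD, n = 2) and *Scn3b* (33.6 ± 3.31) stood at the top and did not differ beyond their spread. *Scn9a* (6.65 ± 1.61), *Scn8a* (5.89 ± 0.0272) and *Scn2a* (5.28 ± 0.776) followed without a gap beyond the spread, then *Scn2b* (3.91 ± 0.468) and *Scn1a* (3.46 ± 0.299), which did not differ beyond theirs either. In KO, *Scn3b* (30.5 ± 0.249 CPM per kilobase) lay above *Scn3a* (23.1 ± 0.429) in both libraries. *Scn8a* (6.997 ± 0.863) came next, *Scn2a* (4.81 ± 1.009) and *Scn9a* (4.49 ± 0.179) were level with each other, and *Scn2b* (3.65 ± 0.184), *Scn1a* (2.79 ± 0.553) and *Scn4b* (0.235 ± 0.231) closed the order.

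As a share of the summed level per kilobase of the 5 alpha subunit genes, *Scn3a* made up 61.2% and 61.6% in WT and 55.25% and 54.2% in KO. The share of *Scn8a* was 9.88% and 11.6% in WT and 15.1% and 18.1% in KO. Neither share overlapped between genotypes. The mean difference was -6.7 percentage points for *Scn3a* and 5.86 for *Scn8a*. The exact permutation test gave p = 0.333 for each, two-sided, which is the smallest value that 2 against 2 libraries allow. *Scn1a* and *Scn2a* overlapped between genotypes, with 5.68% to 7.58% and 9.37% to 13.1%. *Scn9a* took 10.9% to 13% in WT and 10.4% to 10.9% in KO. Among the beta subunit genes *Scn3b* held 88% to 89.8% and *Scn2b* 10.2% to 10.9% in every library. The ratio of the summed beta to the summed alpha level was 0.673 and 0.691 in WT and 0.801 and 0.829 in KO (exact two-sided permutation p = 0.333). The summed alpha level was 59.8 and 50.5 CPM per kilobase in WT and 42.3 and 42 in KO, and the summed beta level was 40.2 and 34.9 in WT and 33.9 and 34.8 in KO. The alpha sums did not overlap, and the beta sum of WT replicate 2 was nearly that of KO replicate 2. These shares do not include the correction for length and GC content, which brought *Scn3a* and *Scn8a* closer together.

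**Figure D3:**
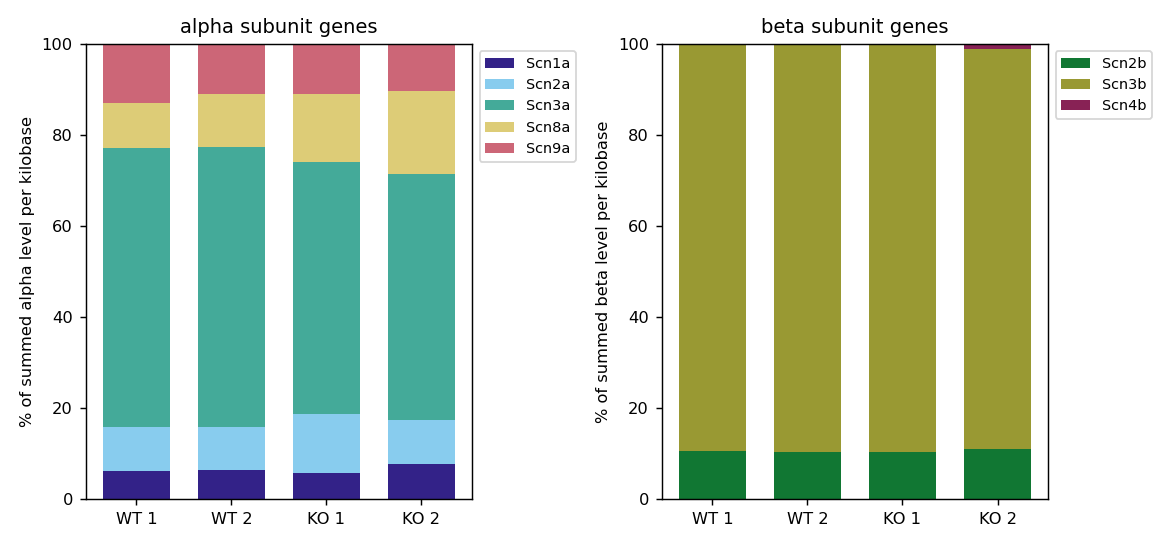
Make-up of the summed level per kilobase of exon of the 5 alpha (left) and 3 beta subunit genes (right), in percent per library. *Scn3a* held the largest alpha share in every library, with 61.2% and 61.6% in WT against 55.25% and 54.2% in KO, while *Scn8a* held more in KO, and *Scn3b* dominated the beta level throughout.

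Other genes of the family were near the detection limit. *Scn7a*, which encodes a sodium-sensing channel that is not gated by voltage, had 9 to 21 counts, and *Scn11a*, a channel of pain-sensing neurons, 9 to 17 counts per library, both with overlapping genotypes. Their log2 fold changes were 0.51 (edgeR adjusted p = 0.687) and -0.34 (edgeR adjusted p = 0.78). *Scn4a* of skeletal muscle and *Scn10a* of sensory neurons had 0 to 2 counts and were not tested.

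Proteins that bind the channels were followed in 2 lists. Of 8 intracellular partners, the 4 fibroblast growth factor homologous factors that bind the channel's C-terminal tail, the 3 calmodulin genes and the ubiquitin ligase gene *Nedd4l*, 0 were called by edgeR (3 at an unadjusted p under 0.05, 2 by DESeq2 and 1 by limma-voom), with a median log2 fold change of -0.29. *Fgf13* had the lowest with -0.71, from 27.7 and 27.5 CPM in WT to 14.6 and 19.2 CPM in KO (edgeR adjusted p = 0.0892), and *Fgf11* the highest with 0.25 (0.536). With the length and GC correction, 4 of the 8 were called lower, against 749 of all 16832 tested genes. By edgeR without the correction, 22.7% of all tested genes had an unadjusted p under 0.05. Of 8 genes for the scaffold and adhesion molecules of the axon initial segment, which anchor the channels, 0 were called by edgeR (2 at an unadjusted p under 0.05, 0 by DESeq2 and by limma-voom), with a median of 0.06. *Cntn2*, which encodes an axonal adhesion molecule, was lowest with -0.43 (edgeR adjusted p = 0.15) and *Ank2*, which encodes ankyrin-B, highest with 0.40 (0.127). The correction called 1 of them in each direction, against 1969 higher and 749 lower of all 16832 tested genes.

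Of 10 genes that regulate sodium channel transcription, splicing or translation, among them the repressor gene *Rest* and the splicing factor genes *Rbfox1* to *Rbfox3*, *Nova1* and *Nova2*, 0 were called by edgeR (4 at an unadjusted p under 0.05, 0 by DESeq2 and by limma-voom). Their log2 fold changes ranged from -0.55 for *Pum2*, a translational repressor gene (edgeR adjusted p = 0.229), to 0.30 for *Nova2* (0.267), with a median of -0.26. With the length and GC correction, 3 of the 10 were called lower, against 749 of all 16832 tested genes. By edgeR without the correction, 22.7% of all tested genes had an unadjusted p under 0.05. *Rest* had 184 to 205 counts in every library. For *Nova2*, an antisense gene overlaps 31.7% of the exonic bases, and reads of both cannot be told apart if strand was not used. *Pum2* had 348 and 198 CPM in WT, and the KO values of 193 and 180 CPM were close to WT replicate 2.

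**Figure D4:**
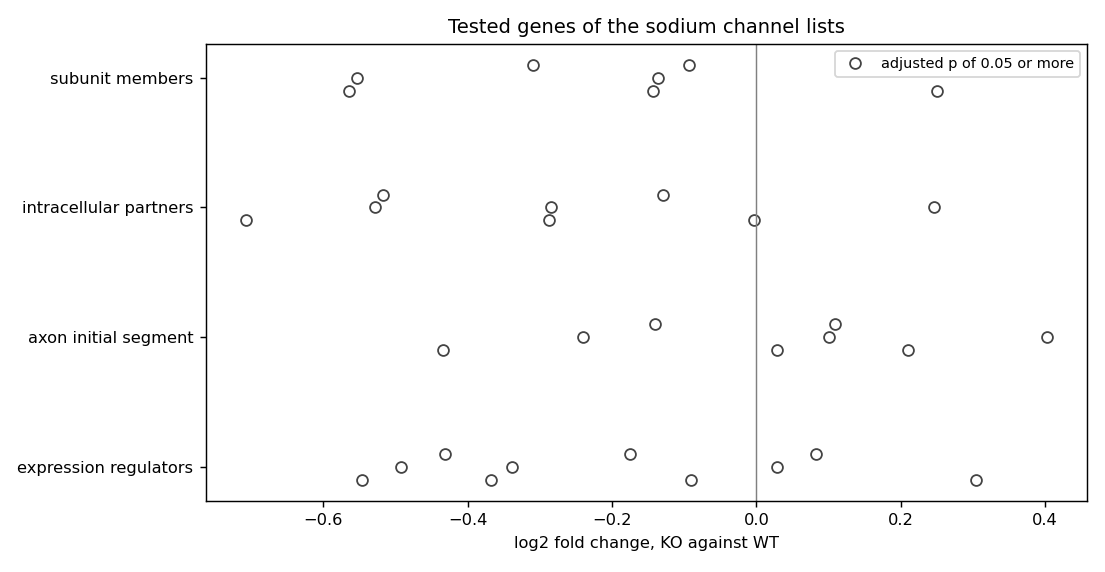
Log2 fold change of KO against WT for each tested gene of the subunit members and of the lists of intracellular partners, axon initial segment and expression regulators (1 open point per gene, all with an edgeR adjusted p of 0.05 or more). The 7 tested subunit genes lie between -0.56 and 0.25, and the lowest point is *Fgf13* with -0.71.

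The sodium leak channel and the sodium pump set the resting sodium balance that voltage-gated channels work against. *Nalcn*, the pore of the leak channel, had 133 and 118 CPM in WT and 76.7 and 84.2 CPM in KO. It fell by 0.64 on the log2 scale (standard error 0.15, edgeR adjusted p = 0.0375), with no overlap between genotypes. The call was lost without KO replicate 1 (-0.56) and without KO replicate 2 (-0.70). It was also lost with library size as the only scaling (-0.53, edgeR adjusted p = 0.0868). The subunits that work with the leak pore had log2 fold changes of -0.14 for *Unc79* (edgeR adjusted p = 0.573) and 0.03 for *Unc80* (edgeR adjusted p = 0.937). Of the beta subunit genes of the pump, *Atp1b2*, known from glia, had 131 and 168 counts in the WT libraries against 1371 and 1749 in the KO libraries and rose by 3.44 on the log2 scale (edgeR adjusted p = 1.18e-05). For *Atp1b1*, the widely used beta subunit gene, the genotypes overlapped at 582 to 644 counts per library (log2 fold change 0.14, edgeR adjusted p = 0.641).

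The labelled cell type was checked against markers. *Gad1* and *Gad2*, which encode the GABA-synthesizing enzymes, had 1066 to 2027 counts and *Hmx3* 604 to 919 counts per library, so that these defining markers were present in both genotypes. Markers of other cells moved with the genotype. For comparison, edgeR called 7.33% of all tested genes higher and 0.57% lower, and 22.7% had an unadjusted p under 0.05. The 10 genes carried by neurons in general summed to 6743 and 6196 CPM in WT and 4597 and 4541 CPM in KO, with a median log2 fold change of -0.56, and 3 of them were called lower. The 8 GABAergic markers summed to 1282 to 1423 CPM in WT and 1100 to 1191 CPM in KO (median -0.25, 0 called by edgeR, DESeq2 and limma-voom, 2 at an unadjusted edgeR p under 0.05). The 6 glutamatergic markers summed to 391 to 416 CPM in WT and 207 to 235 CPM in KO, with 2 called lower. The 10 astrocyte markers summed to 262 and 277 CPM in WT and 3668 and 3865 CPM in KO, all 10 called higher, and *Gfap* had 0 counts in both WT libraries. Of 8 oligodendrocyte markers 7 were called higher (130 to 154 CPM in WT, 560 to 580 in KO), and of 6 mural cell markers all 6 (52.8 to 60.8 CPM in WT, 375 to 376 in KO). The 5 oligodendrocyte precursor markers summed to 1283 to 1339 CPM in WT and 1631 to 1707 CPM in KO, with 1 called higher. Of the POA list 1 of 5 genes, *Isl1*, was called lower, of the microglia list 1 of 6 tested genes higher, and of the choroid plexus and erythroid lists 1 gene each lower. Of the radial glia and endothelial lists 0 of 5 tested genes each were called by edgeR, DESeq2 and limma-voom (3 each at an unadjusted edgeR p under 0.05). The part of these markers in the values of *Scn3a*, *Scn9a*, *Scn8a* and the other channel genes was not tested. In pooled cells, fewer cells of a type and less RNA per cell cannot be told apart.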

How the data were processed

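For each library the authors deposited a list of Ensembl genes with unnormalized counts. The submitters' processing notes name CASAVA 1.8.2, STAR 2.5.2a, featureCounts 1.5.0-p1 and the builds mm10 and GRCm38. The annotation release, strand setting and treatment of multi-mapping reads are not given in the sources used here. Of 55573 identifiers, 55480 matched GENCODE M21. Genotype and replicate were taken from the sample titles.

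Counts were filtered with edgeR's filterByExpr, scaled by TMM and compared by edgeR's quasi-likelihood test with genotype as the only term (edgeR 4.0.16, limma 3.58.1, DESeq2 1.42.0, R 4.3.3), with Benjamini-Hochberg adjustment over all tested genes and a threshold of 0.05. Standard errors were derived from the test statistic. The length and GC correction fitted a loess (span 0.5) to each library. On simulated counts (16310 genes, 200 changed by 2 on the log2 scale) edgeR recovered 94% with 8.29% of its calls false. The members and gene lists were chosen with earlier results of these data known. Named were all members, other family genes, list genes that passed or had the lowest or highest log2 fold change, *Dnmt1*, markers by list and the 3 genes most like the member with the smallest p. *Rest*, *Unc79*, *Unc80*, *Atp1b1*, *Gad1*, *Gad2*, *Hmx3*, *Gfap* and *Isl1* were chosen for naming with their values known. Some list genes are not reported here. Confidence intervals include the spread between libraries, and floors cover counting error only. Alternatives were other tests, scalings and filters, the correction, the replicate number as a block, and each library left out.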

Additional observations from a re-analysis of the deposited data

How the results depend on the processing

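Across the 9 alternative fits to all libraries, the log2 fold change of *Scn3a* lay between -0.56 and -0.27 (adjusted p 0.00824 to 0.133) and passed in 5, that of *Scn9a* between -0.57 and -0.27 and passed in 2, and that of *Scn8a* between 0.24 and 0.36 and passed in none. *Scn2a* turned to 0.105 with the length and GC correction, to 0.098 with the replicate block as well, and ranged from -0.353 to 0.071 with 1 library left out (above 0 without WT replicate 1 or KO replicate 2). *Scn2b* turned to 0.022 with library size only and ranged from -0.224 to 0.024 with 1 library left out. So left, *Scn7a* ranged from -0.279 to 1.035 and *Scn11a* from -0.856 to 0.068. The members called lower were 1 with DESeq2, with limma-voom and with DESeq2's size factors and 2 without a filter, which also called 1 higher (*Scn4b*, through its KO counts). Leaving out 1 library gave 0 to 2 lower and 0 to 1 higher (again *Scn4b*). Of the other family and partner genes, 2 were called higher and 1 lower. The correction gave 4 and 9, and with the block as well 5 and 6. DESeq2 called 3 lower, limma-voom 2, library size only 0 and no filter 5. Leaving out 1 library gave 2 to 4 higher and 0 to 11 lower. Fits with 3 libraries assume that the lone library of a genotype varies like the others. Of all genes, 1233 were higher and 96 lower. The lower genes were 247 with DESeq2, 573 without a filter and 52 with at least 10 counts in every library. The correction gave 1969 higher and 749 lower, and with the block as well 1922 and 725. Leaving out 1 library gave 900 to 2578 higher and 51 to 2180 lower. *Dnmt1* passed with DESeq2 (-0.57), limma-voom (-0.56), DESeq2's size factors (-0.57), no filter (-0.56) and the correction (-0.62, also with the block), and ranged from -0.67 to -0.46 with 1 library left out. With library size only, the median log2 fold change of all genes was 0.084 in place of -0.026. The difference in alpha share ranged from -7.23 to -6.17 percentage points for *Scn3a*, from 4.36 to 7.36 for *Scn8a* and from -0.62 to 1.28 for *Scn1a* with 1 library left out, and that of the beta share of *Scn4b* from 0.211 to 1.14. The causes were not tested.

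The deviations of same-numbered libraries from their genotype means had a correlation of 0.137 across genes, but 2 pairs and a number alone do not pair them. With the replicate block, whose calls on simulated counts were false in 17.9%, 2 members (*Scn3a* and *Scn9a*) were called lower, 7 of the other family and partner genes and 619 of all genes, and *Dnmt1* passed (-0.56).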
